A study of Mus musculus with 2 samples.

Results

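Mpo, Elane, Prtn3, Ctsg and Ms4a3 are genes of the early, protease-loading stage of granulocyte development. They were chosen by name, as a set of primary granule genes, and are 5 of the 13211 genes listed for the bone marrow libraries of this study. All 5 were detected in both libraries. Levels were described across cell classes gated on marker genes, none of which was one of the 5.

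Primary, or azurophil, granules are the first granules that a developing neutrophil makes. Their cargo is transcribed at the promyelocyte stage and is stored for the rest of the life of the cell, so that transcripts are largely gone from mature neutrophils while the proteins remain. Mpo encodes myeloperoxidase, a heme enzyme that makes hypochlorous acid. Elane (neutrophil elastase), Prtn3 (proteinase 3) and Ctsg (cathepsin G) encode serine proteases that digest microbial and matrix proteins. Ms4a3 is not a protease. It encodes a membrane protein of the MS4A family, is known to modulate the cell cycle, and marks granulocyte-monocyte progenitors and their early descendants.

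The study asked how loss of Col1a1 in cells that express, or descend from cells that expressed, the Fsp1 promoter changes the bone marrow. Col1a1fspKO mice carried Fsp1-Cre and Col1a1flox/flox. WT littermates were Cre-negative but also carried Col1a1flox/flox, so both groups share the floxed alleles, in which exons 2 to 5 lie between loxP sites. Marrow of the femur and tibia of 2 untreated mice aged 2 months was pooled for each genotype, sorted for live cells and made into 1 library with 10x Genomics 3′ v2 chemistry. With 1 library per genotype there is no spread between mice, and every difference between the genotypes given here compares 2 libraries and was not tested. Fsp1 is the protein product of S100a4, and S100a4 itself was also transcribed in the marrow, with 2026 UMIs in Col1a1fspKO and 2184 in WT. Col1a1 had 3 UMIs in Col1a1fspKO and 0 in WT, so the deletion could not be checked in these cells. The stromal markers Col1a1, Col1a2, Cxcl12 and Pdgfrb together held 19 UMIs in Col1a1fspKO and 145 in WT, of which Col1a2 had 0 and 11. No stromal class was gated, and Cxcl12 ranked 7 among the leading genes of the preneutrophil-like class described below.

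The Col1a1fspKO library held 1309 cells and 8647722 UMIs, and the WT library held 1169 cells and 8624469 UMIs. A UMI (unique molecular identifier) marks 1 captured mRNA molecule at its 3′ end, so counts do not grow with transcript length. Capture can still differ between genes. Most comparisons below are made within a gene, and where different genes are set side by side their levels and shares also carry that difference. Levels are UMIs of the gene per 1000000 UMIs of the class (CPM), with exact Poisson 95% intervals. Intervals cover counting error only. They do not cover the spread between cells or between mice. The libraries shared 2 cell barcodes. Each cell went to the lineage whose markers scored highest, and 62 of 2478 cells lay near a boundary between lineages. Stages within the neutrophil and monocyte lineages were split by limits on named markers, which that number does not cover. Many cells lay close to those limits. Of granulocytic cells, 90 had 1 Fcnb UMI and 51 had 2, and of monocytic cells 64 had 1 mature monocyte marker UMI and 55 had 2. Unassigned were 5 cells, 1 in Col1a1fspKO and 4 in WT.

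Prtn3 and Elane are neighbours on chromosome 10. In the RefSeq annotation of GRCm38.p6, Prtn3 lies at chr10:79879667-79883174 and Elane at chr10:79886312-79888216, both on the plus strand and 3137 bases apart. Mpo lies at chr11:87793784-87804412 on the plus strand, Ctsg at chr14:56099885-56102574 on the minus strand and Ms4a3 at chr19:11629499-11640851 on the minus strand. In GENCODE M21, Elane, Prtn3 and Ctsg each have 5 exons, the longest Mpo transcript has 14 and the longest Ms4a3 transcript has 7.

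The sequences upstream of the 5 genes are shown because their profiles were alike over the 11 classes compared, which left out basophil-like cells. In basophil-like cells Ctsg and Ms4a3 were highest, while Elane lay far below its level in progenitor-like cells. The letters shared between the sequences can also be read directly. Each run covers the 230 bases that end at the base before the RefSeq start (GRCm38.p6, written 5′ to 3′ on the strand of the gene). Capitals mark GGAAGT, the core that PU.1 and other ETS factors bind, and CAACGG, a site that MYB can bind. The windows are chr11:87793554-87793783 (+) for Mpo, chr10:79886082-79886311 (+) for Elane, chr10:79879437-79879666 (+) for Prtn3, chr14:56102575-56102804 (-) for Ctsg and chr19:11640852-11641081 (-) for Ms4a3.
Mpo: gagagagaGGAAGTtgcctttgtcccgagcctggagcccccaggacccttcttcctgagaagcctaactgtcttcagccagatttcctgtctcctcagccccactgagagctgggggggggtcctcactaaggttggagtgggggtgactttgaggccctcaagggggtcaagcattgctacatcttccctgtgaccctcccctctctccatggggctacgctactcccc
Elane: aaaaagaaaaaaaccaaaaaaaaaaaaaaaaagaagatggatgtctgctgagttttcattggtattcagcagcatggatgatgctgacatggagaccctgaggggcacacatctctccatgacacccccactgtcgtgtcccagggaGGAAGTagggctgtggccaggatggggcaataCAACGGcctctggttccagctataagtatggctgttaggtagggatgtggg
Prtn3: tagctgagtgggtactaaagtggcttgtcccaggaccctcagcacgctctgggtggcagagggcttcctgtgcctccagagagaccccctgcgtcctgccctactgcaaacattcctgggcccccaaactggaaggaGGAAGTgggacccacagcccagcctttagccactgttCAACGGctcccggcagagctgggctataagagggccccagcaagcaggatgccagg
Ctsg: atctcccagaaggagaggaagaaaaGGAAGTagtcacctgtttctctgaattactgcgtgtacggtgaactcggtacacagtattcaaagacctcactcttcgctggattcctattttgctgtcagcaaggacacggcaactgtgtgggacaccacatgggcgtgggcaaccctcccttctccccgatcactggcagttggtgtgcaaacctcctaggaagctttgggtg
Ms4a3: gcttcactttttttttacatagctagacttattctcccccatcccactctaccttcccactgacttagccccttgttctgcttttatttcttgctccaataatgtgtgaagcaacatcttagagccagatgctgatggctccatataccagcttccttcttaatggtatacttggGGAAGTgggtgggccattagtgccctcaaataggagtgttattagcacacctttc

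GGAAGT was found in the 250 bases upstream of 5 of the 5 genes, searched on both strands. The same letters were found in 19.99% of 27025 promoter windows of that length. It lay 222 to 217 bases upstream of the start of Mpo, 205 to 200 bases upstream of Ctsg, 93 to 88 bases upstream of Prtn3, 83 to 78 bases upstream of Elane and 55 to 50 bases upstream of Ms4a3. The longer AGGAAGT, which contains GGAAGT, was found at the 4 protease and peroxidase genes and not at Ms4a3, and in 7.80% of all windows. CAACGG was found at the 2 neighbouring genes only, 51 to 46 bases upstream of Elane and 56 to 51 bases upstream of Prtn3, and in 4.15% of all windows. The C/EBP motif TTNNGCAA was found at 0 of the 5 genes (9.55% of all windows). The RUNX motif TGTGGT (14.2% of all windows) and TATAAA (12.97%) were each found at Ctsg only, both on the strand opposite to the gene. TGTGGT lay 79 to 74 bases upstream. TATAAA lay 237 to 232 bases upstream, beyond the printed bases. The similar run TATAAG can be read in the printed bases of Elane and Prtn3 and was not searched for. The motifs were picked after the sequences had been read. A match describes letters and is no evidence of binding.

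Elane and Prtn3 had their 3 highest levels in progenitor-like, preneutrophil-like and early monocyte-like cells in both libraries. Mpo, Ctsg and Ms4a3 were high in basophil-like cells too, and in WT Ms4a3 was no higher in early monocyte-like cells (47.4 CPM) than in immature neutrophil-like cells (53.7 CPM). Progenitor-like cells (79 cells in Col1a1fspKO and 72 in WT) were gated on markers such as Cd34, Kit and Sox4. Preneutrophil-like cells (107 and 132) scored highest for neutrophil lineage markers or for Fcnb, Gstm1, Trem3 and Cebpe. They lay below the limits on Mmp8 and Retnlg of the later stages. They had fewer than 5 Ltf UMIs or at least 2 Fcnb UMIs, which set them apart from immature neutrophil-like cells, so not each of them carried Fcnb by rule. They were already rich in secondary granule transcripts, with Camp at 51531 and 52430 CPM and Ngp at 40153 and 44119 CPM. Early monocyte-like cells (50 and 69) carried Csf1r, F13a1 and Klf4 but fewer than 2 UMIs of the mature monocyte markers Wfdc17, Clec4a1 and Clec4a3. Together with 29 basophil-like cells and 399 mature monocyte-like cells, these classes held most UMIs of each gene. Only 677 of the 2478 cells had any UMI of the 5.

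**Figure D1:**
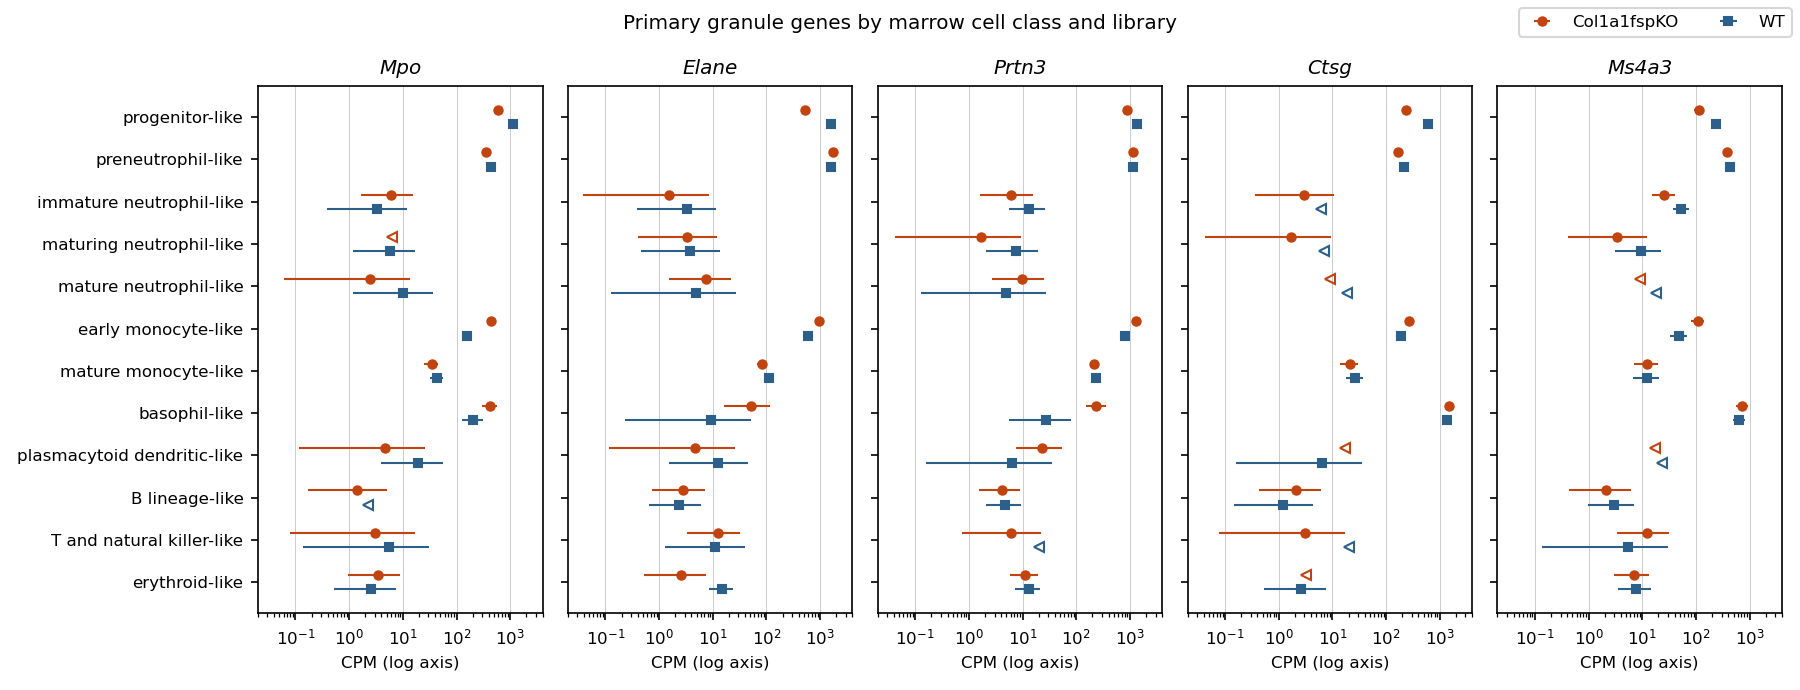
CPM (x axis, log scale) of each gene in the 12 marker-gated classes (y axis). Red circles are the Col1a1fspKO library and blue squares the WT library, bars are exact Poisson 95% intervals, and open triangles mark the upper limit where a class had 0 UMIs. Progenitor-like, preneutrophil-like and early monocyte-like cells lie to the right of lymphoid and erythroid cells for each gene. Basophil-like cells do so for Ctsg, Ms4a3 and Mpo, and for Prtn3 on only 23 and 3 UMIs.

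Mpo, the peroxidase, was highest in progenitor-like cells in both libraries. It stood at 581 CPM (interval 532 to 634) in Col1a1fspKO against 1150.0 CPM (1083 to 1220.4) in WT. In preneutrophil-like cells it was 362 CPM in Col1a1fspKO against 437 CPM in WT, and in immature neutrophil-like cells, which carry Ltf, it was 6.03 and 3.25 CPM. Progenitor-like cells held 42.8% of the Mpo UMIs of Col1a1fspKO and 58.5% of those of WT, the largest share of any class in each library.

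Elane, the elastase, was high in preneutrophil-like cells, at 1771 CPM (1692 to 1853) in Col1a1fspKO against 1622 CPM (1551 to 1695) in WT. Progenitor-like cells had 516 CPM in Col1a1fspKO against 1596 CPM in WT, so that the order of both classes was clear in Col1a1fspKO but not in WT, where their ratio was 0.98 (0.92 to 1.05). Elane left the neutrophil lineage abruptly. In immature neutrophil-like cells it had 1 UMI over 143 cells in Col1a1fspKO against 2 UMIs over 123 cells in WT.

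Prtn3, proteinase 3, was high in progenitor-like, preneutrophil-like and early monocyte-like cells. It was 873 CPM (Col1a1fspKO) and 1329.7 CPM (WT) in progenitor-like cells, 1136 and 1150.2 CPM in preneutrophil-like cells, and 1309 and 807 CPM in early monocyte-like cells. It also persisted in mature monocyte-like cells, at 216 CPM (191 to 242) in Col1a1fspKO against 235 CPM (207 to 264) in WT. There the next of the 5 genes, Elane, stood at 81.9 CPM and 109.9 CPM.

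Ctsg, cathepsin G, reached 235 CPM (Col1a1fspKO) and 589.8 CPM (WT) in progenitor-like cells and 165 and 213 CPM in preneutrophil-like cells. Its highest level was in basophil-like cells, at 1479.8 CPM (1249 to 1741) over 11 cells in Col1a1fspKO against 1336 CPM (1127 to 1572) over 18 cells in WT. These few cells held 21.1% and 12.9% of the Ctsg UMIs of their libraries.

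Ms4a3 was also highest in basophil-like cells, at 725 CPM (566 to 914) in Col1a1fspKO against 636 CPM (495 to 805) in WT. Preneutrophil-like cells followed with 378 and 427 CPM, and they held 59.6% and 56.5% of the Ms4a3 UMIs. Ms4a3 was the only one of the 5 whose interval placed it lower in progenitor-like than in preneutrophil-like cells in both libraries, with a ratio of 0.30 (0.24 to 0.38) in Col1a1fspKO and 0.56 (0.47 to 0.65) in WT. For the enzymes that ratio was above 1 in both libraries for Mpo (1.61 and 2.63) and Ctsg (1.43 and 2.76). It differed in side between the libraries for Prtn3 (0.77 and 1.16), and for Elane it was 0.29 and 0.98.

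Lymphoid and erythroid cells are not known to express these genes, and their levels are given as a background. Free RNA, doublets and misplaced cells can all give such UMIs, and their parts were not tested. All 3 erythroid-like or T and natural killer-like cells of Col1a1fspKO with more than 1 of the 5 genes had 3 of them. In B lineage-like cells (234 and 212) the 5 genes lay between 0 and 4.80 CPM, and in erythroid-like cells (94 and 91) between 0 and 14.6 CPM. Maturing and mature neutrophil-like cells lay between 0 and 9.93 CPM, from at most 5 UMIs of a gene, too few to place them above or below these levels. The median depth was 4126 and 5467 UMIs in B lineage-like cells, 9382.5 and 11343 UMIs in erythroid-like cells, and between 7916 and 11463 UMIs in progenitor-like, preneutrophil-like and early monocyte-like cells. With each cell thinned to 2500 UMIs, at most 1.42% of B lineage-like and 2.198% of erythroid-like cells had a UMI of any 1 of the genes. Without thinning these shares reached 3.77% and 13.2%. In progenitor-like cells the thinned share with a Prtn3 UMI was 49.4% in Col1a1fspKO and 37.5% in WT, and the unthinned share was 59.5% and 52.8%.

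Ms4a3 had the smallest fall of the 5 genes along the neutrophil branch in both libraries. From preneutrophil-like to immature neutrophil-like cells its level dropped 14.7-fold (9.09 to 25.6) in Col1a1fspKO and 7.95-fold (5.59 to 11.7) in WT. Elane dropped 1175-fold (211 to 46437) in Col1a1fspKO and 499-fold (138 to 4120) in WT, resting on 1 and 2 UMIs. The drop was 188-fold (73.4 to 693) and 88.4-fold (44.7 to 205) for Prtn3. It was 60.0-fold (23.2 to 221) and 134-fold (37.0 to 1113) for Mpo, the latter resting on 2 UMIs. Ctsg fell 54.6-fold (14.9 to 455) in Col1a1fspKO, on 2 UMIs, and at least 43.7-fold in WT, where immature neutrophil-like cells had 0 UMIs and the floor of 3 UMIs over the class was used. The intervals of Ms4a3 and Prtn3 did not overlap in either library, while those of Ms4a3 overlapped with Mpo and Ctsg in Col1a1fspKO. Among the enzymes the intervals overlapped in each pair that had them, so no order among them is given.

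In immature neutrophil-like cells Ms4a3 still had 25.6 CPM (14.9 to 41.0) in Col1a1fspKO against 53.7 CPM (36.9 to 75.4) in WT. That was 12.3 times (3.57 to 65.7) and 17.9 times (6.94 to 58.7) its level in B lineage-like cells. None of the 4 enzymes had an interval above 1 for the same ratio in either library, where one could be formed. Ms4a3 therefore supplied 60.7% and 73.3% of the few UMIs of the 5 genes in these cells, against 9.91% and 11.1% in preneutrophil-like cells. Its ratio of Col1a1fspKO over WT in immature neutrophil-like cells was 0.477 (0.249 to 0.882), from 17 and 33 UMIs. That is past the 1.5-fold limit, but the share of all genes past it in this class was not counted.

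Ms4a3 also declined least within the preneutrophil-like class when its cells were split into 3 equal bins by the share of their UMIs that came from the secondary granule genes Camp, Ngp, Ltf and Lcn2. The median of that share was 8.51% and 8.48% in the lowest bin (Col1a1fspKO and WT) and 15.1% and 14.7% in the highest bin. Elane fell from 3680 CPM (3514 to 3852) in the lowest bin to 95.9 CPM in the middle bin and 10.9 CPM in the highest bin in Col1a1fspKO. In WT it fell from 4221 CPM (4036 to 4413) to 39.8 CPM and 22.6 CPM. Nearly the whole Elane signal of the class thus came from its lowest bin, 37 and 43 cells.

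Mpo showed the same step, from 759.5 CPM to 0 UMIs in the middle bin of Col1a1fspKO and from 1137 CPM to 4.97 CPM in WT. Ctsg went from 344 to 7.10 CPM in Col1a1fspKO and from 559.8 to 2.49 CPM in WT, with 0 UMIs in the highest bin of both. Prtn3 went from 2347 to 81.7 and then 10.9 CPM in Col1a1fspKO. In WT it went from 2903 to 102 and then 50.8 CPM. Ms4a3 declined far less, from 620 to 202 and then 117 CPM (79.7 to 165) in Col1a1fspKO. In WT it went from 808 to 191 and then 195 CPM (152 to 247), so that the middle and the highest bin did not differ beyond counting error there. Ms4a3 was detected in 44.4% and 59.1% of the cells of the highest bin, where Elane was detected in 8.33% and 11.4%. Depth was lower in the later bins, with a median of 13064 UMIs in the lowest and 7064 in the highest bin of Col1a1fspKO, and 10385 and 7790.5 UMIs in WT. The genes that set the bins are themselves part of the total that CPM is taken from, at the shares given above.

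**Figure D2:**
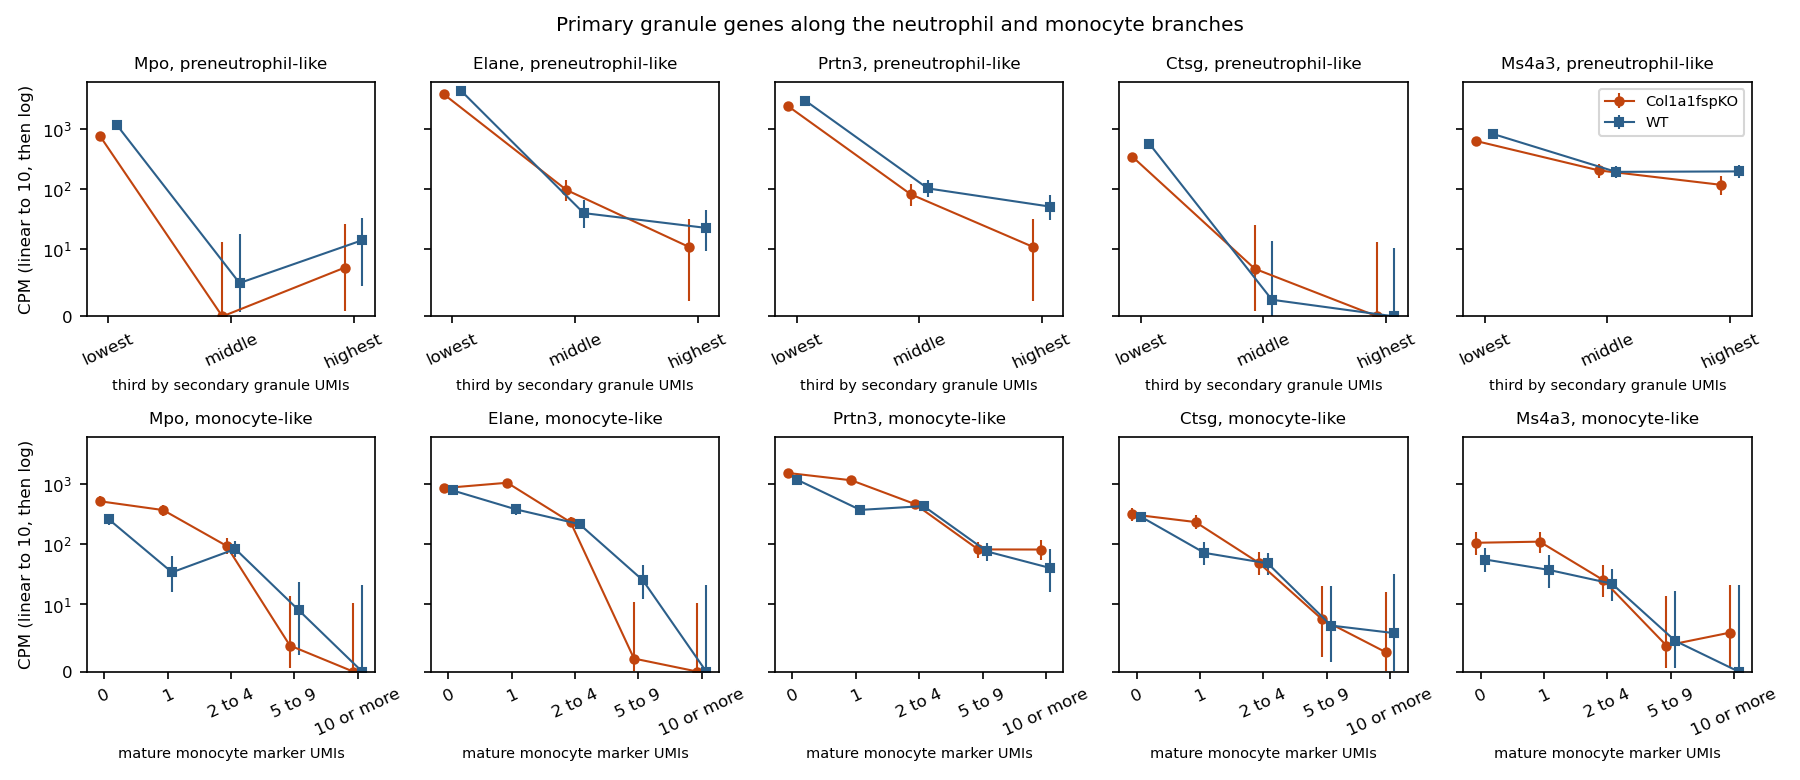
CPM of each gene (y axis, linear to 10 and log above) in preneutrophil-like cells split into 3 equal bins by secondary granule UMIs (top row) and in monocyte-like cells split by UMIs of the mature monocyte markers (bottom row). Circles in red are Col1a1fspKO, squares in blue are WT, and bars are exact Poisson 95% intervals. Elane fell from 3680 and 4221 CPM to 10.9 and 22.6 CPM across the bins while Ms4a3 stayed above 100 CPM, and Prtn3 remained measurable in the last bin of the monocyte row.

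Along the monocyte branch it was Prtn3 that lasted longest. From early to mature monocyte-like cells Prtn3 fell 6.07-fold (5.27 to 7.01) in Col1a1fspKO and 3.44-fold (2.967 to 3.999) in WT, the smallest fall of the 5 genes in each library. Elane fell 11.5-fold (9.34 to 14.4) and 5.40-fold (4.41 to 6.65), and Ctsg 12.8-fold (8.42 to 19.99) and 7.24-fold (4.83 to 11.2). The intervals of Prtn3 overlapped with those of Ms4a3 in both libraries and of Mpo in WT. Measured from progenitor-like cells, the contrast was clearer. Prtn3 was 4.05 times (3.53 to 4.66) higher there than in mature monocyte-like cells in Col1a1fspKO and 5.67 times (4.97 to 6.49) in WT, and the intervals of the other 4 genes lay above these in both libraries, between ratios of 6.30 and 27.1.

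Splitting all monocyte-like cells by their UMIs of Wfdc17, Clec4a1 and Clec4a3 gave a graded picture. Prtn3 stood at 1503 CPM (1345 to 1674) in Col1a1fspKO against 1165 CPM (1057 to 1282) in WT in cells with 0 marker UMIs. In cells with 2 to 4 marker UMIs it was 461 and 425 CPM. In cells with 10 or more it was still 81.2 CPM (53.9 to 117) and 40.1 CPM (16.1 to 82.6), whereas Elane had 0 UMIs in that bin in both libraries, over 56 and 31 cells. Prtn3 made up 42.7% and 45.0% of the UMIs of the 5 genes in early monocyte-like cells and 59.1% and 55.2% in mature monocyte-like cells.

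Basophil-like cells had a mix of their own. They were gated on Prss34, Ms4a2, Fcer1a, Cpa3 and Cd200r3, and numbered 11 in Col1a1fspKO and 18 in WT. Ctsg was 6.29 times (5.05 to 7.81) higher in them than in progenitor-like cells in Col1a1fspKO and 2.27 times (1.87 to 2.72) in WT, and Ms4a3 was 6.37 times (4.63 to 8.72) and 2.67 times (2.01 to 3.52) higher. Elane, in contrast, was 51.0 and 9.21 CPM, from 5 UMIs and 1 UMI. Prtn3 was 235 and 27.6 CPM, from 23 and 3 UMIs. Ctsg was detected in 10 of 11 and 16 of 18 of these cells. Of the UMIs of the 5 genes in them, Ctsg made up 50.9% and 60.4% and Ms4a3 24.9% and 28.75%. Mcpt8, a basophil protease that is a granzyme-family homolog of Ctsg, stood at 21135 and 32137 CPM there.

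**Figure D3:**
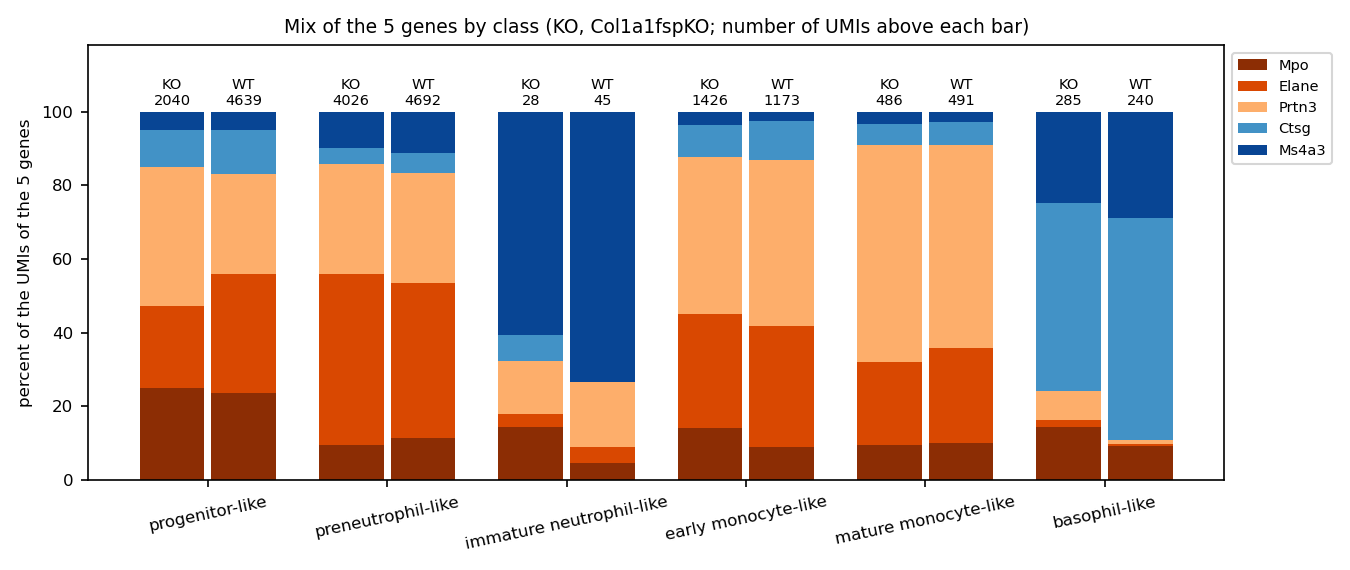
Share of each gene in the UMIs of the 5 genes together (y axis, percent) in 6 classes, with the Col1a1fspKO library (KO) and the WT library side by side and the number of UMIs above each bar. Elane and Prtn3 fill most of the preneutrophil-like bars, Ms4a3 takes 60.7% and 73.3% in immature neutrophil-like cells, Prtn3 59.1% and 55.2% in mature monocyte-like cells, and Ctsg 50.9% and 60.4% in basophil-like cells.

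Within a class, the genes were carried by a minority of cells at very different levels. In preneutrophil-like cells, Elane was at 0 UMIs in 79 of 107 cells in Col1a1fspKO and 93 of 132 in WT, while the highest cell had 245 and 363 UMIs. Cells with 10 or more Elane UMIs, 22 and 18 in number, held 99.4% and 97.9% of the Elane UMIs of the class. Ms4a3 was more evenly spread, with a UMI in 61.7% and 64.4% of preneutrophil-like cells and no more than 36 and 53 UMIs in a cell. Among early monocyte-like cells, the 5 cells with the most Mpo held 94.1% of its UMIs in Col1a1fspKO and 72.8% in WT.

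**Figure D4:**
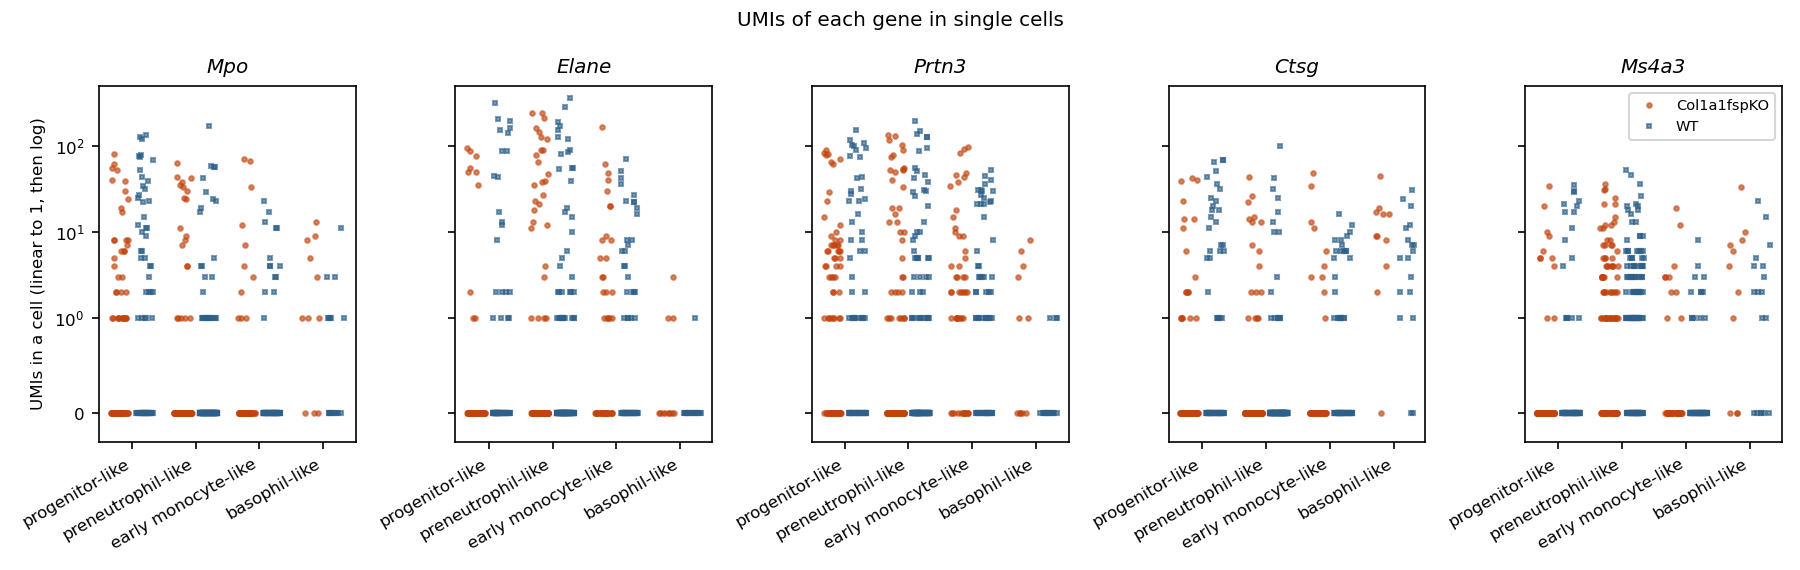
UMIs of each gene in single cells (y axis, linear to 1 and log above) of 4 classes, with 1 point per cell, red circles for Col1a1fspKO and blue squares for WT, and a horizontal scatter that carries no value. In preneutrophil-like cells Elane was at 0 UMIs in 79 and 93 cells, at 1 to 9 in 6 and 21, and at 10 or more in 22 and 18. It reached 245 and 363 UMIs, whereas Ms4a3 fills the range from 1 to 53 UMIs.

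Of cells with any of the 5 genes, most had only 1, namely 204 cells in Col1a1fspKO and 190 in WT. Other cells held several of the genes together. All 5 were detected in 33 cells of Col1a1fspKO and 41 of WT. Of these, 14 and 13 were preneutrophil-like, 8 and 14 progenitor-like, 6 and 11 early monocyte-like, 2 and 2 mature monocyte-like, 3 and 0 basophil-like, and the last in WT was unassigned. In preneutrophil-like cells, 26 of 28 cells with Elane also had Ms4a3 in Col1a1fspKO and 35 of 39 in WT. The reverse was less complete, since 26 of 66 and 35 of 85 cells with Ms4a3 had Elane. In progenitor-like cells, 18 of 19 and 26 of 28 cells with Ctsg also had Mpo, and only 9 of 38 and 20 of 38 cells with Mpo had Elane.

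The progenitor-like class was a mixture in this respect. Cells with 10 or more Elane UMIs numbered 7 of 79 in Col1a1fspKO (8.86%, Clopper-Pearson interval 3.64 to 17.4%) and 13 of 72 in WT (18.1%, 9.98 to 28.9%). They had a median of 19780 and 20679 UMIs per cell, above the 8720 and 11463 UMIs of the class. Prtn3 stood at 3985 and 4010 CPM in them, Mpo at 2532 and 3342 CPM, Ctsg at 1251 and 1795 CPM and Ms4a3 at 667 and 783 CPM. A second group, 31 and 25 cells, had Mpo without high Elane, with Mpo at 530 and 734 CPM. Irf8, a factor of monocyte and dendritic development, was at 350 and 456 CPM in the second group, and Cd34, a progenitor surface marker, at 322 and 327 CPM. The other 41 and 34 cells had no Mpo UMI. Car1, a gene of early erythroid and megakaryocytic progenitors, stood at 408 and 1443 CPM in them, against 6.13 and 86.0 CPM in the second group. Only 14.6% and 47.1% of them had a Car1 UMI, against 6.45% and 8.0% of the second group, so most of these cells did not carry it. Dntt, the terminal transferase of lymphoid progenitors, did not set them apart, at 248 and 125 CPM against 297 and 152 CPM in the second group. Prtn3 was still 145 CPM (111 to 187) there in Col1a1fspKO and 33.8 CPM (18.0 to 57.8) in WT. Elane and Mpo set these groups, so their own values describe the split.

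Between the libraries, the CPM of each of the 5 genes was lower in progenitor-like cells of Col1a1fspKO than of WT. The ratio of Col1a1fspKO over WT was 0.505 (0.454 to 0.562) for Mpo, 0.324 (0.291 to 0.3595) for Elane and 0.657 (0.5997 to 0.719) for Prtn3. It was 0.399 (0.339 to 0.469) for Ctsg and 0.478 (0.374 to 0.608) for Ms4a3. All 5 were thus at least 1.5-fold lower, where 4.62% of the 3763 genes with at least 50 UMIs in the class were, and the median ratio of those genes was 0.993. The share of Elane-high cells given above, 8.86% against 18.1%, and the median depth, 8720 against 11463 UMIs, moved with these ratios, and their part in them was not tested. Within the Elane-high cells Prtn3 was at 3985 CPM in Col1a1fspKO against 4010 CPM in WT, and Elane at 3371 and 5750.2 CPM. In the cells with no Mpo UMI Prtn3 was higher in Col1a1fspKO, at 145 against 33.8 CPM. The share of progenitor-like cells with a Prtn3 UMI was higher there too, since 32 of 79 cells had none against 34 of 72 in WT. For each of the other genes that share was lower in Col1a1fspKO. Cells with 10 or more Prtn3 UMIs, 12 and 20 in number, held 80.9% and 96.0% of its UMIs. In a graph clustering made without the 5 genes, the ratios in progenitor-like cells stayed under 1, between 0.499 and 0.760, and only Prtn3 was no longer 1.5-fold lower. Prtn3 also missed that limit without the cells near a gate boundary (0.777), with cells thinned to 2500 UMIs (0.87) and as a mean of cell CPM (0.751).

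In preneutrophil-like cells the ratios lay nearer to 1. The ratio was 0.827 (0.723 to 0.945) for Mpo, 1.09 (1.02 to 1.16) for Elane, 0.988 (0.913 to 1.07) for Prtn3, 0.772 (0.634 to 0.939) for Ctsg and 0.885 (0.775 to 1.01) for Ms4a3. None of the 5 was 1.5-fold lower, against 3.67% of the 3355 genes considered in the class. Ctsg was 1.5-fold lower under other class boundaries, at 0.388 in the graph clustering and 0.603 without the cells near a gate boundary. Without the 5 cells of each library with the most UMIs of the gene, the ratio turned to 1.31 for Mpo and 1.39 for Ctsg, so their direction in this class rested on few cells. Elane turned to 0.937 with thinned cells and 0.938 as a mean of cell CPM.

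In early monocyte-like cells the order was turned round. Mpo was 434 CPM in Col1a1fspKO against 157 CPM in WT, a ratio of 2.76 (2.16 to 3.53). Elane was 946 and 593 CPM (ratio 1.59, 1.39 to 1.83), and Ms4a3 was 107 and 47.4 CPM (ratio 2.27, 1.42 to 3.67). Prtn3 had a ratio of 1.62 (1.44 to 1.83) and Ctsg, at 269 and 188 CPM, one of 1.43 (1.11 to 1.85). So 4 of the 5 were at least 1.5-fold higher, where 3.55% of 2480 genes were. These values rested on few cells. Without the 5 cells of each library with the most UMIs of the gene, the ratio turned to 0.691 for Mpo, 0.912 for Elane and 0.307 for Ctsg, and stayed above 1 for Prtn3 (1.19) and Ms4a3 (1.31). With each cell given the same weight, the ratios were 1.68 for Mpo, 1.24 for Elane and 0.980 for Ctsg. In the graph clustering, where the class was larger, they were 1.72 for Mpo, 1.22 for Elane and 1.16 for Prtn3. The share of early monocyte-like cells with a UMI was 22.0% in Col1a1fspKO and 20.3% in WT for Mpo, 44.0% and 39.1% for Elane, and 10 of 50 against 24 of 69 cells for Ctsg.

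In mature monocyte-like cells the ratios lay between 0.745 for Elane (0.571 to 0.970) and 0.992 for Ms4a3 (0.454 to 2.19, from 16 and 14 UMIs). Of the 4 genes with at least 50 UMIs there, 0 were 1.5-fold lower, against 3.68% of 4343 genes. In basophil-like cells the ratio was 2.06 (1.20 to 3.64) for Mpo, from 41 and 22 UMIs, 1.11 (0.874 to 1.40) for Ctsg and 1.14 (0.807 to 1.61) for Ms4a3. Mpo was thus the 1 of 3 genes with enough UMIs that was 1.5-fold higher there, against 7.21% of 527 genes. Over all cells the ratio was 0.641 (0.596 to 0.690) for Mpo, 0.709 (0.676 to 0.744) for Elane, 0.832 (0.792 to 0.875) for Prtn3, 0.607 (0.551 to 0.667) for Ctsg and 0.726 (0.656 to 0.802) for Ms4a3. Mpo and Ctsg were thus 1.5-fold lower over all cells, where 2.93% of 9725 genes were. Class shares moved with these totals, since preneutrophil-like cells made up 8.17% of Col1a1fspKO cells and 11.3% of WT cells and mature neutrophil-like cells 9.63% and 4.88%. The part of those shares in the totals was not tested.

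**Figure D5:**
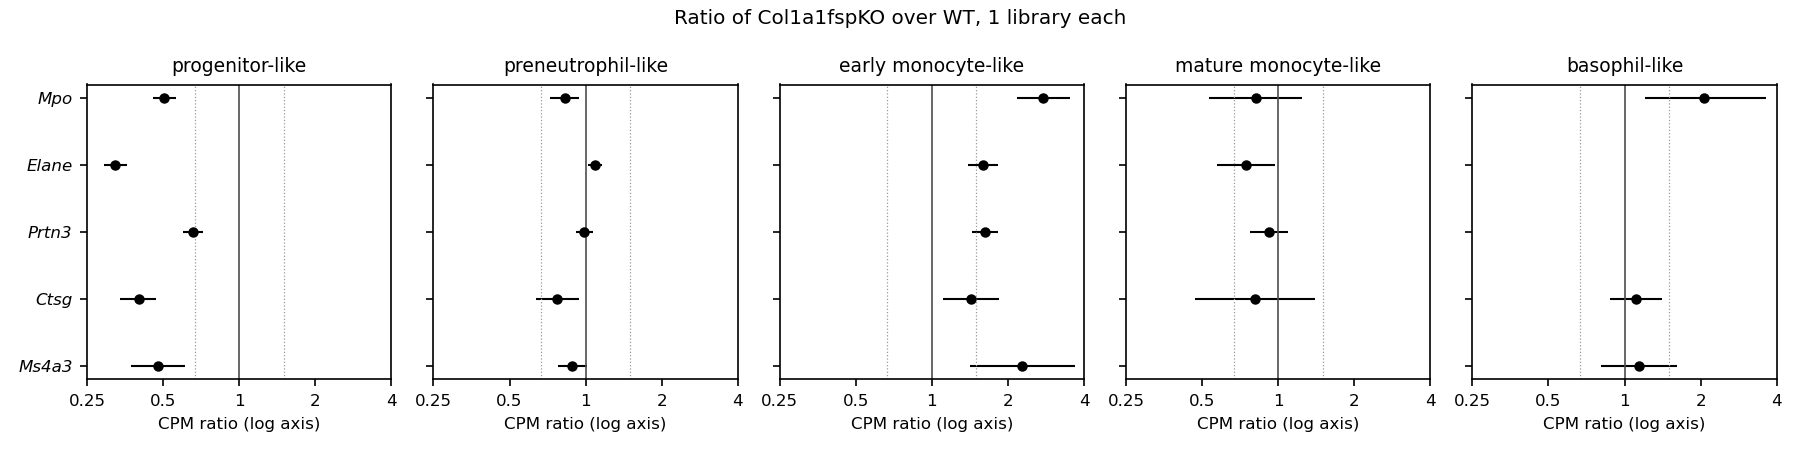
Ratio of the CPM in Col1a1fspKO over that in WT (x axis, log scale) for each gene with at least 50 UMIs in 5 classes, with exact binomial 95% intervals as bars, a solid line at 1 and dotted lines at the 1.5-fold limits. All 5 genes lie left of 1 in progenitor-like cells, between 0.324 and 0.657, and right of 1 in early monocyte-like cells, between 1.43 and 2.76.

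Other genes of the pathway were followed from lists by role. Among 11 other azurophil granule cargo genes, 10 were listed, and most did not share the pattern. Prss57, a serine protease of the same granules, was highest in preneutrophil-like cells in both libraries, at 71.0 and 54.1 CPM, and 1 of 7 cargo genes with enough UMIs, Prss57 itself, was 1.5-fold lower in progenitor-like cells of Col1a1fspKO (18.2 against 52.8 CPM, ratio 0.344, 0.183 to 0.615), against 4.62% of all genes considered in the class. The lysosomal enzymes and lysozyme behaved otherwise. Lyz2 (lysozyme), Npc2, Hexa and Gusb were highest in a monocyte-like class in both libraries, Lyz2 with 23549 and 29660 CPM in mature monocyte-like cells. Cd63, a granule membrane tetraspanin, and Man2b1 were highest in basophil-like cells. In preneutrophil-like cells 0 of 8 cargo genes were past the 1.5-fold limit. In early monocyte-like cells 1 of 6, Man2b1, was higher in Col1a1fspKO, at 96.7 against 38.2 CPM, against 3.55% of all genes, and the median ratio of the cargo genes was 1.06.

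Genes that activate, fold or package the proteases were not restricted to the cells that made them. Ctsc, which encodes the dipeptidase that activates the serine proteases, was highest in mature monocyte-like cells, at 494 and 364 CPM, and only 26.5 and 11.5 CPM in preneutrophil-like cells. Srgn, the proteoglycan core on which granule proteins are packed, was highest in basophil-like cells, at 1531 and 1880 CPM. Of 6 genes in this list, 4 had enough UMIs in progenitor-like cells and 0 were 1.5-fold different there. In early monocyte-like cells 1 of 4, Calr (calreticulin, a chaperone of myeloperoxidase), was higher in Col1a1fspKO, at 249 against 151 CPM, with the same 3.55% as background. Of the 5 inhibitor genes, Serpinb1a, which blocks elastase, proteinase 3 and cathepsin G, was highest in preneutrophil-like cells in both libraries, at 446 and 405 CPM. It remained at 335 and 314 CPM in immature neutrophil-like cells, where Mpo, Elane and Ctsg stood at 6.03 CPM or less. Slpi, a secreted inhibitor of elastase, was highest in mature neutrophil-like cells, at 1936 and 2046 CPM. Of the inhibitor genes with enough UMIs, 0 of 2 were past the 1.5-fold limit in progenitor-like cells, 0 of 2 in preneutrophil-like cells and 0 of 1 in early monocyte-like cells.

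Transcription factors of early myeloid development had 11 of 12 genes listed. In progenitor-like cells 2 of 8 were 1.5-fold lower in Col1a1fspKO, Cebpa (26.2 against 53.9 CPM) and Cebpb (64.8 against 111 CPM), and 0 were higher. Over all genes considered in the class 4.62% were lower and 4.97% higher. Cebpa was also the 1 of 7 factors lower in early monocyte-like cells, at 34.4 against 79.5 CPM, where 5.69% of all genes considered were lower. Cebpe, the factor of secondary granule genes, was at 881 and 922 CPM in preneutrophil-like cells and 909 and 963 CPM in immature neutrophil-like cells. Gfi1 was highest in preneutrophil-like cells (39.8 and 26.3 CPM), where it was 1 of 2 factors 1.5-fold higher in Col1a1fspKO, beside Irf8 (43.5 against 19.7 CPM), out of 9 considered and against 4.41% of all genes in the class. Myb was highest in progenitor-like cells (207 and 231 CPM). Cebpe and Myb were gate markers, so the classes they peaked in were partly set by them.

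Ltf, Camp, Ngp, Lcn2 and Mmp8, among the later granule genes, were gate markers. The levels of Camp and Mmp8 show how the classes were ordered. Camp, which encodes cathelicidin, was at 51531 and 52430 CPM in preneutrophil-like cells and 66258 and 61439 CPM in immature neutrophil-like cells. Mmp8, a neutrophil collagenase of later granules, stood at 106 and 86.2 CPM in immature, 2117 and 2143 CPM in maturing and 2529 and 3189 CPM in mature neutrophil-like cells. In progenitor-like cells 2 of 6 later granule genes were 1.5-fold higher in Col1a1fspKO: Camp (891 against 554 CPM) and Ngp (666 against 341 CPM), against 4.97% of all genes considered. Camp was also found in B lineage-like cells, at 1935 and 1518 CPM, and the part of RNA from other cells in this difference was not tested. Of 5 such genes in early monocyte-like cells, 2 were lower in Col1a1fspKO, Chil3 (215 against 477 CPM) and Mmp8 (36.5 against 82.6 CPM), against 5.69% of all genes, and in preneutrophil-like cells 0 of 6 differed by 1.5-fold. Of 6 cell cycle genes, 0 were past the limit in progenitor-like, preneutrophil-like or early monocyte-like cells, with median ratios of 1.07, 0.950 and 1.01.

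Of 14 neighbours and homologs, 11 were listed. Med16, which lies near Prtn3 and Elane, was highest in plasmacytoid dendritic-like cells, at 60.9 and 25.03 CPM from 13 and 4 UMIs, and stood at 14.8 and 12.7 CPM in progenitor-like cells. The relatives of Ms4a3 were spread over other lineages. Ms4a1 was at 293 and 284 CPM in B lineage-like cells, Ms4a2 at 918 and 1253 CPM in basophil-like cells and Ms4a6c at 1119.5 and 1182 CPM in mature monocyte-like cells, and all 3 were gate markers of those lineages. Of the listed genes with enough UMIs, 0 of 1, 0 of 1 and 0 of 2 were past the 1.5-fold limit in progenitor-like, preneutrophil-like and early monocyte-like cells.

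Over the 11 classes with at least 20 cells in each library, 22 points in all, the profiles of the 5 genes on a log2(CPM + 10) scale were alike, with Pearson correlations from 0.845 (Prtn3 and Ms4a3) to 0.985 (Mpo and Ctsg). Basophil-like cells, with 11 and 18 cells, were not among them. Of 9725 genes with at least 50 UMIs, the most like the mean of the 5 was Dtx4 (r = 0.957), with only 53 UMIs in all, followed by Gatm (0.880), which encodes an enzyme of creatine synthesis, and Dmkn (0.865). Gstm1 (0.854) and Igfbp4 (0.829) were among the first 10 but are gate markers. Prss57 was the second most like Ms4a3 alone (0.858). The points share libraries and depth, and the correlations are descriptions.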

How the data were processed

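Per the labels and the study's methods, the authors sequenced live-sorted marrow cells with 10x Genomics 3′ v2 chemistry, and their processing notes name Cell Ranger, Seurat 3.5.3 and mm10. The deposited tables hold raw UMI counts per gene and cell, 1 library per genotype, each from 2 pooled mice. The stated limits on genes and mitochondrial UMIs removed 0 cells here. Cells went to the lineage with the highest mean z-scored marker expression. Neutrophil and monocyte stages, and basophil-like cells, were then split by UMIs of named markers (Retnlg, Mmp8, Ltf and Fcnb; Wfdc17, Clec4a1 and Clec4a3; Prss34, Ms4a2, Fcer1a, Cpa3 and Cd200r3). Counts were summed per class and library. CPM intervals were exact Poisson, ratios exact binomial and shares Clopper-Pearson, all at 95%. No doublets were removed in the values reported. A gene was called where its CPM ratio reached 1.5-fold with at least 50 UMIs in the class. Named genes were the 5 members, the fixed role lists and the genes with the most similar profile. The members and lists were chosen with earlier results of these data known, and the gates were set after looking at the data. The scripts were tested on simulated data. Sequences came from RefSeq (GRCm38.p6) and exon counts from GENCODE. Tools were Python 3.11.15, numpy 2.4.6, pandas 2.3.3, scipy 1.17.1, scanpy 1.11.5 and matplotlib 3.10.9. Alternatives covered gates, clustering, thinning, filters, doublets and weighting of cells.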

Additional observations from a re-analysis of the deposited data

How the results depend on the processing

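No paired analysis was possible because each genotype has 1 library, and for the same reason no library could be left out. Of 165 values of the 15 ratios of Col1a1fspKO over WT (5 genes in 3 classes) under the alternatives, 112 stayed within the counting interval of the reported ratio and 53 moved outside it. Of these 53, 9 lay on the other side of 1 from the reported ratio, 6 of them without the 5 cells with the most UMIs of the gene. In progenitor-like cells all ratios stayed below 1 under each alternative run. In early monocyte-like cells Prtn3 and Ms4a3 stayed above 1, and Mpo, Elane and Ctsg did not. In preneutrophil-like cells Mpo, Elane, Prtn3 and Ctsg each crossed 1 under at least 1 alternative. Levels and shares per class moved as well. Of the levels, 236 values moved outside their counting intervals and 324 stayed within them. For shares of UMIs these numbers were 136 and 264, for shares of cells 63 and 377, and for the other ratios 32 and 104. The graph clustering alone moved 36 levels and 40 shares of UMIs, while 14 and 10 stayed. The causes were not tested.

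Clustering without the 5 genes gave, in progenitor-like cells, 0.535 for Elane, 0.76 for Prtn3, 0.499 for Ctsg and 0.612 for Ms4a3. In preneutrophil-like cells it gave 1.01 for Elane, 0.888 for Prtn3 and 0.388 for Ctsg, and in early monocyte-like cells 1.72 for Mpo, 1.22 for Elane and 1.16 for Prtn3. Doubled gate thresholds gave 2.13 for Mpo and 1.39 for Prtn3 in early monocyte-like and 1.02 for Elane in preneutrophil-like cells. With the UMI thresholds of the gates at 1, Elane was 1.02 in preneutrophil-like cells, and early monocyte-like cells gave 1.98 for Mpo, 1.1 for Elane, 1.29 for Prtn3 and 1.1 for Ctsg. With cells thinned to 2500 UMIs and kept in their class, progenitor-like cells gave 0.565 for Mpo, 0.87 for Prtn3, 0.325 for Ctsg and 0.338 for Ms4a3. Preneutrophil-like cells then gave 0.937 for Elane and 0.753 for Prtn3, and early monocyte-like cells 1.92 for Mpo, 1.38 for Elane, 1.17 for Prtn3 and 1.0 for Ctsg. The mean of cell CPM gave 0.751 for Prtn3 in progenitor-like cells, 0.938 for Elane and 0.817 for Prtn3 in preneutrophil-like cells, and 1.68 for Mpo, 1.24 for Elane and 0.98 for Ctsg in early monocyte-like cells.

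A further 2 alternatives were chosen after seeing the data. Without the 62 cells near a boundary between lineages, progenitor-like cells gave 0.642 for Mpo, 0.423 for Elane, 0.777 for Prtn3 and 0.497 for Ctsg. Preneutrophil-like cells then gave 0.603 for Ctsg. Without the 5 cells of each library with the most UMIs of the gene, progenitor-like cells gave 0.425 for Mpo, 0.202 for Elane, 0.574 for Prtn3, 0.197 for Ctsg and 0.253 for Ms4a3. In preneutrophil-like cells the ratio turned to 1.31 for Mpo, 1.11 for Prtn3 and 1.39 for Ctsg, and was 1.26 for Elane. In early monocyte-like cells it turned to 0.691 for Mpo, 0.912 for Elane and 0.307 for Ctsg, and was 1.19 for Prtn3 and 1.31 for Ms4a3. In progenitor-like, preneutrophil-like and early monocyte-like cells no ratio moved outside its interval under the remaining alternatives. These were a stricter cell filter (25 cells fewer), leaving out the called doublets (0.382% and 0.428% of cells) and a shared UMI minimum of 2909. The last was CPM taken without the 5 genes and the most abundant genes. Among the other ratios, 1 moved with the shared UMI minimum and 14 stayed.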
